A study of Homo sapiens with 6 samples.

Results

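Accessible chromatin near 9 genes of lipid and glucose metabolism was described in A549, an established cell line from a human lung adenocarcinoma. The genes were FASN, LPIN1, ANGPTL4, CPT1A, PDK4, PFKFB3, GLUL, IRS2 and FOXO1. Members were the regions with a called DNase-seq peak within 100 kb of the hg19 start of any of these genes, and there were 122 of 81216 regions in all. The genes were chosen by what is known of them and with the peak calls of these same libraries already in view, so all values by treatment are given as a description and without a test. In DNase-seq, DNase I cuts DNA where chromatin is accessible, and the fragment ends are sequenced. The treated group had received 100 nM dexamethasone for 1 h and the control group 0.02% ethanol, the vehicle, for 1 h, with 3 libraries each, numbered 1 to 3. Dexamethasone is a synthetic glucocorticoid. All libraries came from the same parental line with no allele or transgene named, and the labels name no separate cultures, so the spread between libraries may be technical. The identity of the line was not checked against marker genes.

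Glucocorticoids bind the glucocorticoid receptor, a nuclear receptor that then attaches to DNA and changes the activity of regulatory elements. In liver, fat and muscle these hormones are known for shifting fuel use: they favour the release and burning of fatty acids, limit glucose oxidation and oppose insulin. The genes described here stand at several steps of that programme. FASN builds fatty acids and LPIN1 makes the diacylglycerol used for triglycerides. ANGPTL4 inhibits lipoprotein lipase, CPT1A carries fatty acids into mitochondria and PDK4 inhibits pyruvate oxidation. PFKFB3 makes the activator of glycolysis fructose 2,6-bisphosphate and GLUL makes glutamine. IRS2 relays the insulin signal and FOXO1 is the transcription factor that this signal switches off.

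Each library is a list of peaks called on its own, and a region was a run of peaks sharing at least 1 bp across the lists. The lists held 58281 to 61344 peaks, and the number of reads behind them is unknown. A library with a peak in a region was counted as calling it. A missing call says only that the caller's threshold was not passed. In these bulk samples, fewer cells with an accessible site and less accessibility per cell cannot be told apart. The fold enrichment of a peak is the authors' value at its summit and belongs to its own list. Distances run from the gene start to the centre of the region. A region is named by the gene whose start lies within 100 kb, and distance alone does not assign it to that gene.

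The promoters of these genes frame the description, because the region nearest the start of every gene had a peak in all 6 libraries. That region covered the start in 8 genes and ended 0.166 kb from it at GLUL. Promoter sequence was taken from RefSeq (GRCh38.p14), which held 8 of the 9 genes. Positions in that build were not joined to the hg19 peaks, and its starts need not be the starts used here. The 250 bases before the start are shown 5′ to 3′ on the gene's strand for 4 genes with a single listed start. They show the letters in which the motifs were searched. CPT1A also had a single listed start. Its promoter held no match and is not shown, because it may belong to another start than the one used here. Capitals mark every match to the motifs searched.
PDK4 (chr7:95596517-95596766, minus strand): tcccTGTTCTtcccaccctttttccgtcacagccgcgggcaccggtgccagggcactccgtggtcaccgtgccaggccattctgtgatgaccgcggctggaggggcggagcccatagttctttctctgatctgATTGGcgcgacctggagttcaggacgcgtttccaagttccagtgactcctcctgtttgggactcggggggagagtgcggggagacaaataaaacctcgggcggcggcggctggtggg
ANGPTL4 (chr19:8363905-8364154, plus strand): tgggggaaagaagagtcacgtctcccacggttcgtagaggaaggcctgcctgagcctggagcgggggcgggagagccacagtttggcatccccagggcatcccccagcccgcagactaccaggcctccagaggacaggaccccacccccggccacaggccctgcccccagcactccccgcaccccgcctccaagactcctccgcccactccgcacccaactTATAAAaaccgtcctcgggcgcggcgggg
IRS2 (chr13:109786584-109786833, minus strand): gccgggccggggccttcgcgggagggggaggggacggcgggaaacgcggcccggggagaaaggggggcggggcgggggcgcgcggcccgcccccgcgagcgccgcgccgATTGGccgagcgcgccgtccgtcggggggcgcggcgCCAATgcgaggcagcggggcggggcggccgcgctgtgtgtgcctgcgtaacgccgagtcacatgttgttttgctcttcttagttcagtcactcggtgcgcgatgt
FOXO1 (chr13:40666642-40666891, minus strand): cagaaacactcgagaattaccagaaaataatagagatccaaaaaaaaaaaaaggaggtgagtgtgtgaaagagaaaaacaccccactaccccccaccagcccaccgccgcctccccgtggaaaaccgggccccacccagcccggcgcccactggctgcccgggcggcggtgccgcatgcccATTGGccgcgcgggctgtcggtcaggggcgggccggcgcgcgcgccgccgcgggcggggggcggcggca

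Motifs were searched as exact letters on both strands of the 12 listed promoters of the 8 genes and of all 35116 promoters. The full glucocorticoid response element was read as AGAACA and TGTTCT with 3 free bases between them, and a relaxed form as GNACA and TGTNC with the same spacing. Neither matched any of the 12, and over all promoters they matched 0.00285% and 0.327%. A lone hexamer AGAACA, which is also contained in the full element, matched PDK4 alone, starting 246 bases before its start, and 12.4% of all promoters held it. CCAAT matched 4 of the 12 promoters, against 32.0% of all promoters. These were the promoters of PDK4, IRS2 and FOXO1 and 1 GLUL promoter, with 2 matches each in IRS2 and GLUL. TATAAA matched in ANGPTL4, 29 bases before its start, and in 10.7% of all promoters. The E-box CACGTG matched a PFKFB3 promoter and 6.34% of all promoters. No match was found among the 12 for AP-1 (TGACTCA or TGAGTCA, in 4.2% of all promoters), the cyclic AMP element (TGACGTCA, 1.65%), C/EBP (TTGCGCAA or TTGCGTAA, 0.279%) or forkhead (TGTTTAC or TGTTTGC, 6.09%). The same held for the SREBP element (TCACCCCAC or TCACGCCAC, 0.473%) and the PPAR element DR1, which was read as AGGTCA repeated after 1 free base (0.0171%).

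Most accessible regions around the 9 genes were present under both treatments. Of the 122 regions, 70 (57.4%) were called in all 6 libraries, against 49.2% of all regions, and 22 (18.0%) in a single library, against 18.9%. The number of regions within 100 kb differed widely between genes: 27 at ANGPTL4, 22 at PFKFB3, 17 at LPIN1, 16 at FASN, 13 each at PDK4 and CPT1A, 7 at IRS2, 4 at GLUL and 3 at FOXO1. The map of calls around the starts shows ANGPTL4 with regions throughout its window and FOXO1 with all of its regions within 6.02 kb of the start. Over all 9 genes the dexamethasone libraries held 100, 93 and 90 peaks and the ethanol libraries 95, 99 and 91. That was 94.3 ± 5.13 peaks with dexamethasone and 95 ± 4 with ethanol (SD, n = 3 each), so the groups overlapped. IRS2 had 5, 4 and 4 peaks with dexamethasone and 6 in each ethanol library, while FASN had 14, 13 and 14 with dexamethasone and 12, 13 and 12 with ethanol. IRS2 was singled out after the counts were seen, and the counts of every other gene overlapped or tied between treatments. Regions near the genes had a median width of 352.5 bp, against 334 bp for all regions. The farthest member had its nearest edge 96.7 kb from the PDK4 start, called in 1 dexamethasone and 3 ethanol libraries, and the nearest region beyond the limit lay 102.8 kb from ANGPTL4, called in all 6.

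**Figure D1:**
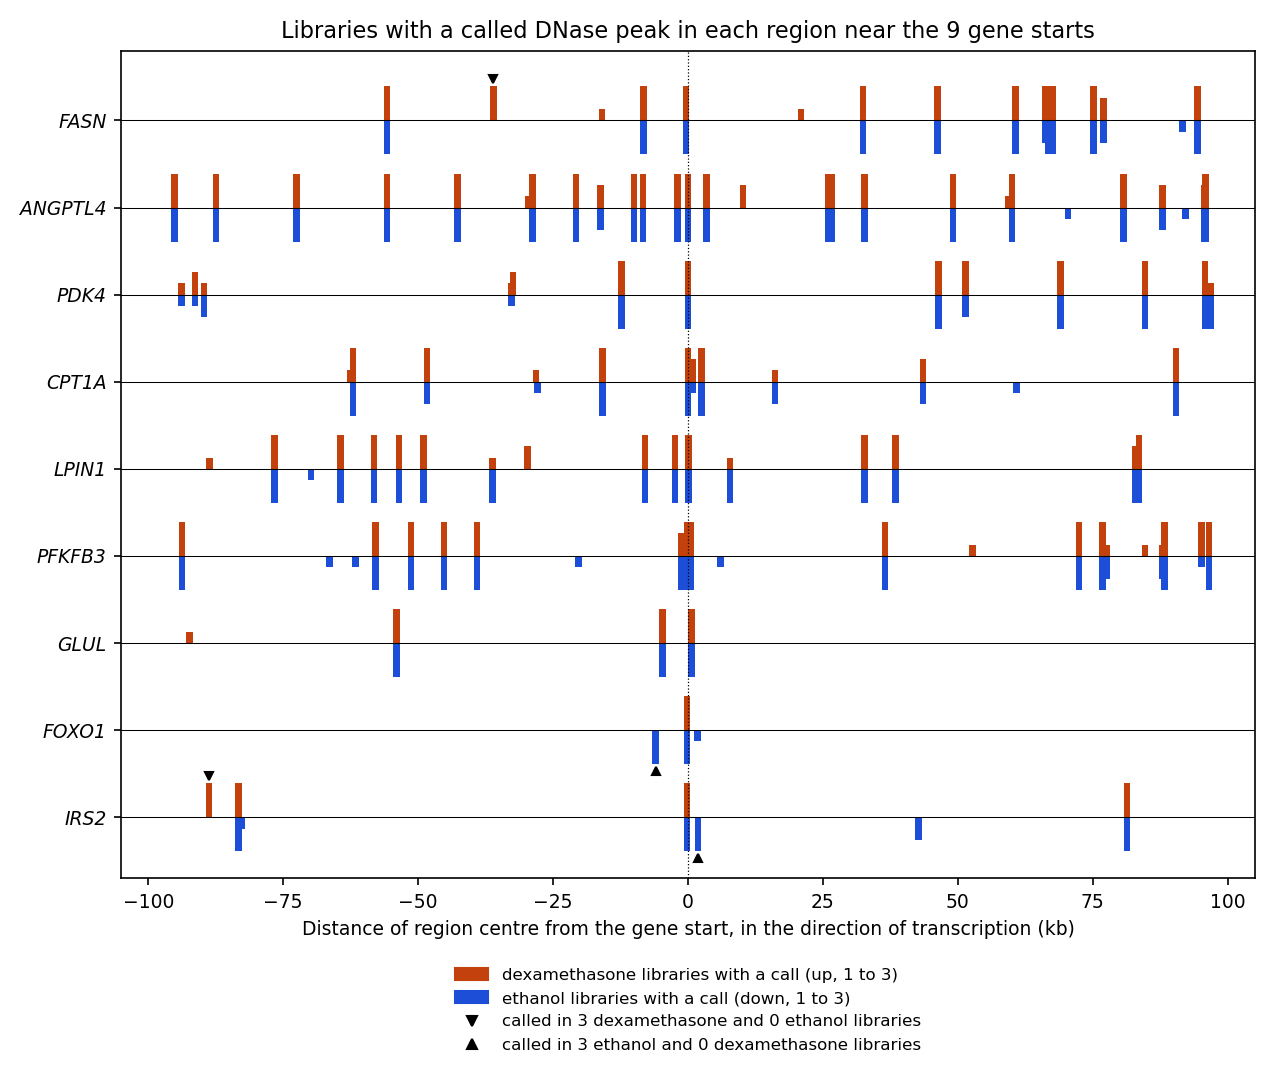
Libraries with a called peak in each of the 122 regions, by distance of the region centre from the gene start in kb (x axis, direction of transcription to the right) and by gene (rows). Bars upward count dexamethasone libraries (0 to 3), bars downward ethanol libraries (0 to 3), bars are drawn wider than the regions, and triangles mark the 2 regions called in all dexamethasone libraries alone (FASN and IRS2) and the 2 called in all ethanol libraries alone (FOXO1 and IRS2).

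Regions called in all libraries of one treatment and none of the other were few. Called in 3 dexamethasone and 0 ethanol libraries were 2 of the 122 regions, or 1.64%, against 1.10% of all regions. Called in 0 dexamethasone and 3 ethanol libraries were also 2 of the 122 (1.64%), against 0.662%. At least 2 more dexamethasone than ethanol libraries had a call in 6 regions (4.92%), against 4.47% of all regions, and at least 2 more ethanol than dexamethasone libraries in another 6 (4.92%), against 4.80%. Taking equally numbered libraries as pairs and asking for a difference in at least 2 pairs and none the other way is the same condition as this excess of 2 libraries, so the counts are 6 and 6 by construction. Without dexamethasone replicate 3 the first count was 4 instead of 2, and without dexamethasone replicate 2 the second was 4. With a library left out the rule is looser, and the share over all regions under it is not given here. These counts cannot be set against 1.10% and 0.662%.

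Among the genes of lipid synthesis, FASN held the strongest site seen with dexamethasone alone. It lay 36.1 kb upstream of the start at chr17:80091919-80092424. Its fold enrichment was 12.5, 11.8 and 13.6 in dexamethasone replicates 1 to 3, and no ethanol library had a call, the nearest ethanol peak being 19.2 kb away. The peaks spanned 503, 485 and 486 bp and their summits lay within 93 bp of each other. By −log10 q these peaks stood at percentiles 86.5, 82.2 and 90.2 of their own lists, so all 3 were in the upper part of their lists. The same site kept its calls in 3 dexamethasone and 0 ethanol libraries in each of the 5 alternatives run for named regions. The −log10 q of its peaks (69.7, 57.7 and 65.2), their spans and summits and the distant ethanol peaks fixed this outcome in advance. In gene order on GRCh38.p14 the next gene upstream of FASN is CCDC57, and distance alone assigns the site to neither gene.

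No other FASN region differed by 2 libraries or more. Its start region (chr17:80055958-80057081) was the widest of the 9 start regions at 1124 bp, with fold enrichments of 8.40, 8.28 and 8.40 with dexamethasone and 8.12, 8.67 and 8.91 with ethanol. Of the 10 FASN regions called in all libraries, the one with the highest percentiles lay 60.6 kb downstream at chr17:79995070-79995875, with fold enrichments of 12.7, 12.2 and 13.5 with dexamethasone and 12.7, 13.2 and 13.1 with ethanol. Its ranks, which did not overlap between treatments, are given with the shared regions.

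LPIN1 held 3 regions that differed by 2 libraries, and none of these exceeded 5.76-fold. A region 29.7 kb upstream (chr2:11856893-11857132) was called in dexamethasone replicates 1 and 3, at 5.45-fold and 3.25-fold, and in no ethanol library. It was called in a single dexamethasone library when a −log10 q of at least 5 was required. A region 36.2 kb upstream (chr2:11850417-11850693) was called in dexamethasone replicate 3 at 5.76-fold and in all ethanol libraries at 4.39, 4.87 and 4.35-fold. A region 7.77 kb downstream (chr2:11894369-11894656) was called in dexamethasone replicate 2 at 5.18-fold and in the ethanol libraries at 4.56, 4.72 and 4.86-fold. At both of these sites the lean rests on missing calls in 2 dexamethasone libraries.

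**Figure D2:**
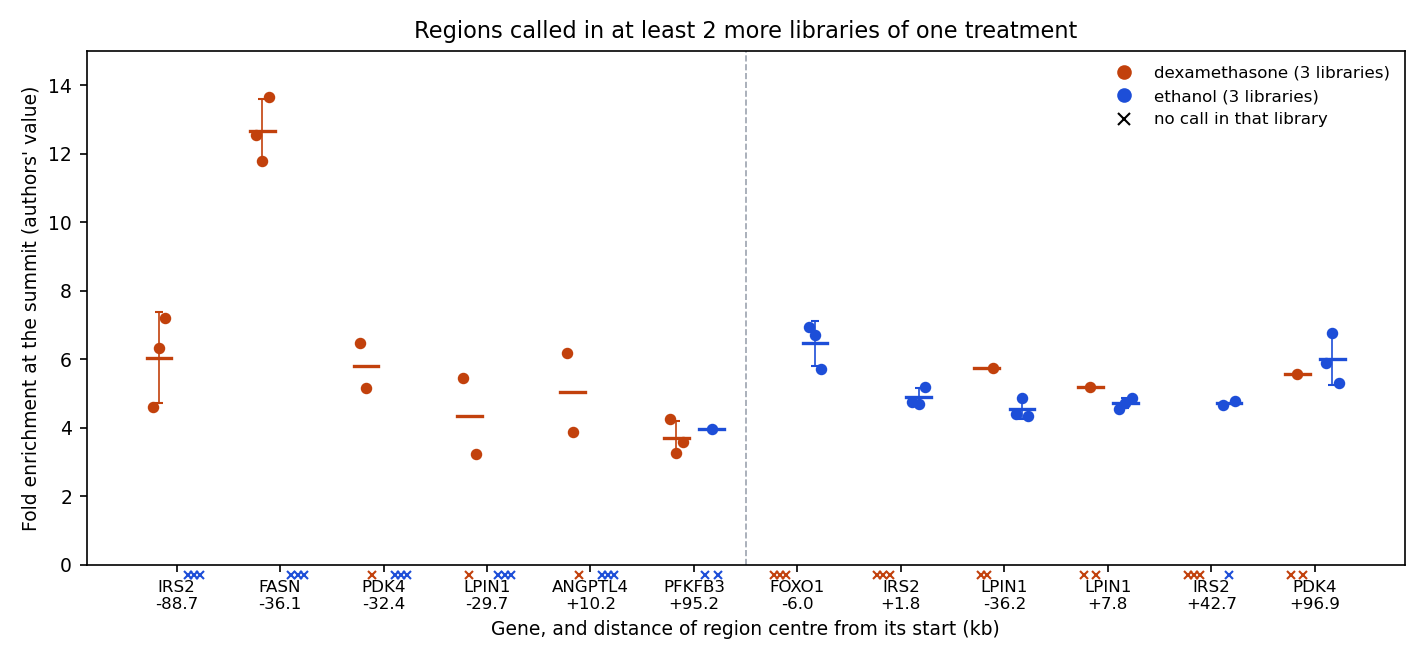
Fold enrichment at the summit (y axis, the authors' value, linear from 0) for the 12 regions called in at least 2 more libraries of one treatment, with gene and distance from its start in kb on the x axis. Dots are libraries (dexamethasone left of ethanol), crosses below the axis mark libraries without a call, lines are means and bars the SD where 3 libraries had a call. The FASN site at 11.8 to 13.6-fold stands above the others, which reach at most 7.21-fold.

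ANGPTL4 and PDK4, which inhibit lipoprotein lipase and pyruvate oxidation, each had a weak region called with dexamethasone alone in 2 of 3 libraries. At ANGPTL4 it lay 10.2 kb downstream of the start (chr19:8438996-8439348), at 6.19-fold and 3.89-fold in dexamethasone replicates 1 and 2, with the nearest ethanol peak 6.36 kb away. At a −log10 q of at least 5, and with lists of one length, a single call was left. At PDK4 it lay 32.4 kb upstream (chr7:95258141-95258486), at 6.46-fold and 5.15-fold in dexamethasone replicates 1 and 2. The closest ethanol peak was 0.011 kb from it, and when peaks were joined across gaps of 100 bp the excess of dexamethasone over ethanol calls fell to 1 library. PDK4 also had a region 96.9 kb downstream (chr7:95128895-95129227) called in dexamethasone replicate 2 at 5.56-fold and in the ethanol libraries at 5.89, 6.78 and 5.32-fold.

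The insulin pathway genes carried the remaining regions of a single treatment. At IRS2, a region 88.7 kb upstream (chr13:110527450-110527836) was called with dexamethasone at 4.60, 6.34 and 7.21-fold and in no ethanol library. Its percentiles of 4.63, 31.4 and 44.5 place it in the lower part of each list, unlike the FASN site. The nearest ethanol peak was 4.89 kb away, in a region 83.3 kb upstream (chr13:110521925-110522555) that all libraries shared, at 15.1, 10.9 and 11.1-fold with dexamethasone and 12.5, 10.3 and 10-fold with ethanol. Ethanol alone gave calls 1.81 kb downstream of the IRS2 start (chr13:110436955-110437254), at 4.75, 4.71 and 5.20-fold, with summits within 36 bp. A further IRS2 region 42.7 kb downstream (chr13:110396095-110396386) was called in ethanol replicates 1 and 3 at 4.68 and 4.79-fold and in no dexamethasone library.

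FOXO1 had a site close to its start that was called with ethanol alone. A region 6.02 kb upstream (chr13:41246621-41246879) was called at 6.95, 6.72 and 5.73-fold with ethanol, with summits within 15 bp, and in no dexamethasone library, where the nearest peak was 5.34 kb away. Its percentiles in the ethanol lists were 42.5, 32.6 and 20.8, and those of the IRS2 site 1.81 kb downstream were 38.9, 39.1 and 47.9. Both ethanol-only sites kept their calls in each of the 5 alternatives run for named regions, as did the dexamethasone-only site of IRS2. Stricter lists and the cover rule can only remove calls, and no peak of the other treatment lay within 100 bp of these sites. The missing calls therefore could not return in these alternatives. PFKFB3 had no region called in 3 libraries of one treatment and 0 of the other, and 6 regions called in a single library. A region 95.2 kb downstream of PFKFB3 (chr10:6339846-6340277) was called in all dexamethasone libraries at 4.25, 3.26 and 3.59-fold and in ethanol replicate 2 at 3.95-fold, but its summits lay up to 237 bp apart and the excess was 0 libraries when summits within 100 bp were joined and 1 library at a −log10 q of at least 5 or with lists of one length. When peaks had to cover at least 50% of the region, it was called in 3 dexamethasone and 0 ethanol libraries. GLUL and CPT1A had no region that differed by 2 libraries or more.

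For the regions called in all 6 libraries, strength was compared as a rank. Each library's −log10 q was ranked over the same 39934 regions and written as a percentile, with 100 for the strongest, so that all libraries ranked lists of equal length. The start regions covered a wide span on this scale. FASN stood highest, at ranks of 94.6, 94.2 and 96.4 with dexamethasone and 94.7, 95.6 and 96.1 with ethanol. LPIN1 followed, at 91.5, 88.1 and 86.0 with dexamethasone and 93.0, 89.3 and 86.3 with ethanol. PFKFB3 had 84.7, 86.5 and 74.9 with dexamethasone and 87.2, 79.9 and 80.8 with ethanol. At LPIN1 each dexamethasone library was below the ethanol library of its number, as in 14.6% of all shared regions. The ranks of these 3 start regions overlapped between treatments. Their differences in mean rank, dexamethasone minus ethanol, were −0.34 for FASN, −1.01 for LPIN1 and −0.55 for PFKFB3, the last of which was 4.05 when ranked by fold enrichment.

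CPT1A, the mitochondrial gate for fatty acids, was the 1 gene of 9 whose start region had ranks that did not overlap between treatments. Over all shared regions the dexamethasone ranks were all above in 5.79% and all below in 5.62%, so 1 of 9 is near that background. The region over its start (chr11:68609225-68609553) had ranks of 70.5, 71.3 and 68.8 with dexamethasone and 41.3, 60.05 and 49.3 with ethanol. All dexamethasone ranks were above all ethanol ranks, and the means were 70.2 ± 1.31 with dexamethasone and 50.2 ± 9.38 with ethanol (SD, n = 3 each), a difference of 20.0 points. Over all shared regions, of whatever rank, 1.92% had a difference at least this large. Its summits lay within 3 bp in the 6 libraries, and its fold enrichments were 7.84, 8.12 and 7.57 with dexamethasone and 5.37, 6.87 and 6.24 with ethanol. A neighbouring region 2.52 kb downstream was shared by all libraries at ranks that overlapped between treatments.

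The other start regions overlapped between treatments. ANGPTL4 (chr19:8428765-8429170) had ranks of 68.8, 32.9 and 51.0 with dexamethasone and 48.0, 51.2 and 30.0 with ethanol. PDK4 (chr7:95225415-95226465) had 62.6, 62.3 and 41.1 with dexamethasone and 52.1, 58.7 and 37.6 with ethanol. Each dexamethasone library was above the ethanol library of its number, by a mean of 5.86 points. Of all shared regions, 14.2% were higher in all 3 pairs and 18.9% had a mean difference at least this large. IRS2 (chr13:110438819-110439475) had 68.1, 68.0 and 53.7 with dexamethasone and 67.1, 64.2 and 70.4 with ethanol. FOXO1 (chr13:41240538-41241285) had 79.1, 81.7 and 77.8 with dexamethasone and 73.3, 85.3 and 80.8 with ethanol. At GLUL the nearest region (chr1:182360189-182361175) ended 0.166 kb downstream of the start and had the lowest mean rank, at 55.2, 47.5 and 17.9 with dexamethasone and 46.6, 37.3 and 23.9 with ethanol. The summits of this GLUL region lay up to 606 bp apart, and those of dexamethasone replicate 3 and ethanol replicate 3 were away from the others.

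**Figure D3:**
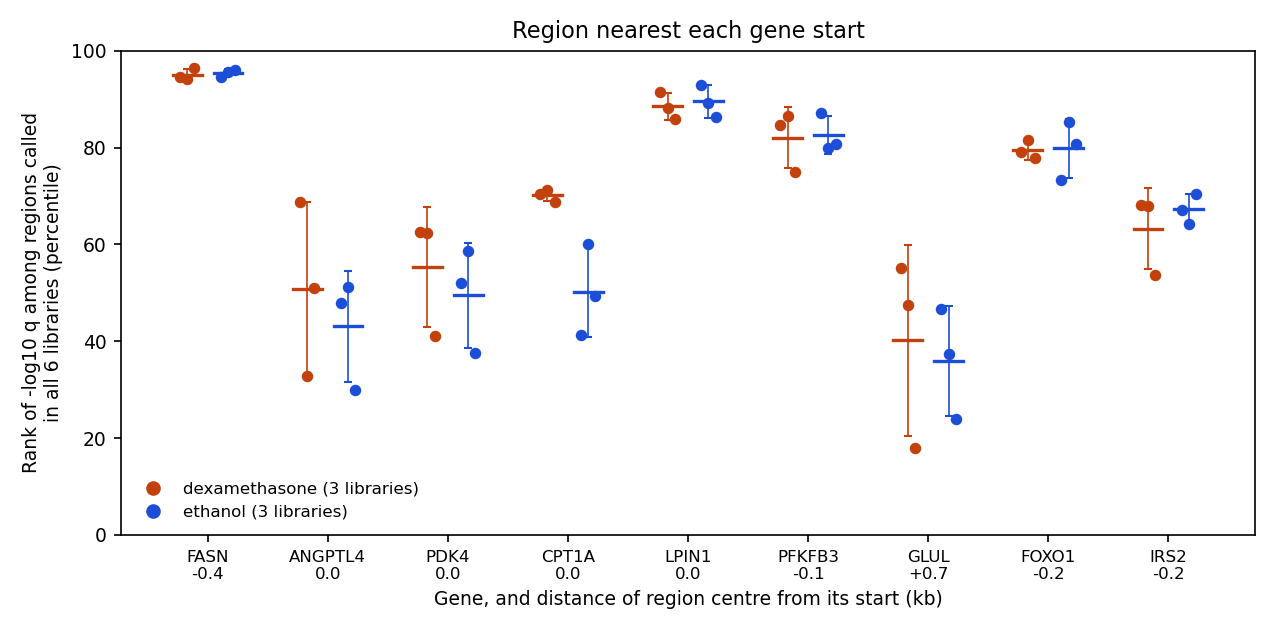
Rank of −log10 q among the 39934 regions called in all libraries (y axis, percentile) for the region nearest each of the 9 gene starts, with its distance from the start in kb on the x axis. Dots are libraries, dexamethasone left of ethanol, with mean and SD (n = 3); the CPT1A region has dexamethasone ranks of 68.8 to 71.3, above all ethanol ranks of 41.3 to 60.05, and the other 8 overlap.

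Across the 70 shared regions the rank differences were centred near 0, as they were elsewhere. The median difference, dexamethasone minus ethanol, was −0.30 points near the 9 genes and −0.12 points over all shared regions. The mean rank was higher with dexamethasone in 33 of the 70 and lower in 37, against 19534 higher and 20399 lower of all 39934. By gene, it was higher with dexamethasone in 6 of 6 shared regions at PDK4 (by 3.03 to 20.1 points) and in 3 of 3 at GLUL (by 3.10 to 10.1 points), and lower in 10 of 12 at PFKFB3 and 12 of 19 at ANGPTL4. The other genes were mixed, with 4 higher and 6 lower at FASN, 6 and 5 at LPIN1, 3 and 2 at CPT1A and 2 and 1 at IRS2, and the 1 shared FOXO1 region was lower. Regions of a gene share the same 6 libraries and are not replicates of the treatment. The largest difference at PDK4 was 12.4 kb upstream (chr7:95238042-95238538), a region singled out after its values were seen. It had ranks of 64.4, 51.7 and 63.2 with dexamethasone and 56.3, 34.8 and 28.0 with ethanol, which overlap, although each equally numbered pair was higher with dexamethasone.

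**Figure D4:**
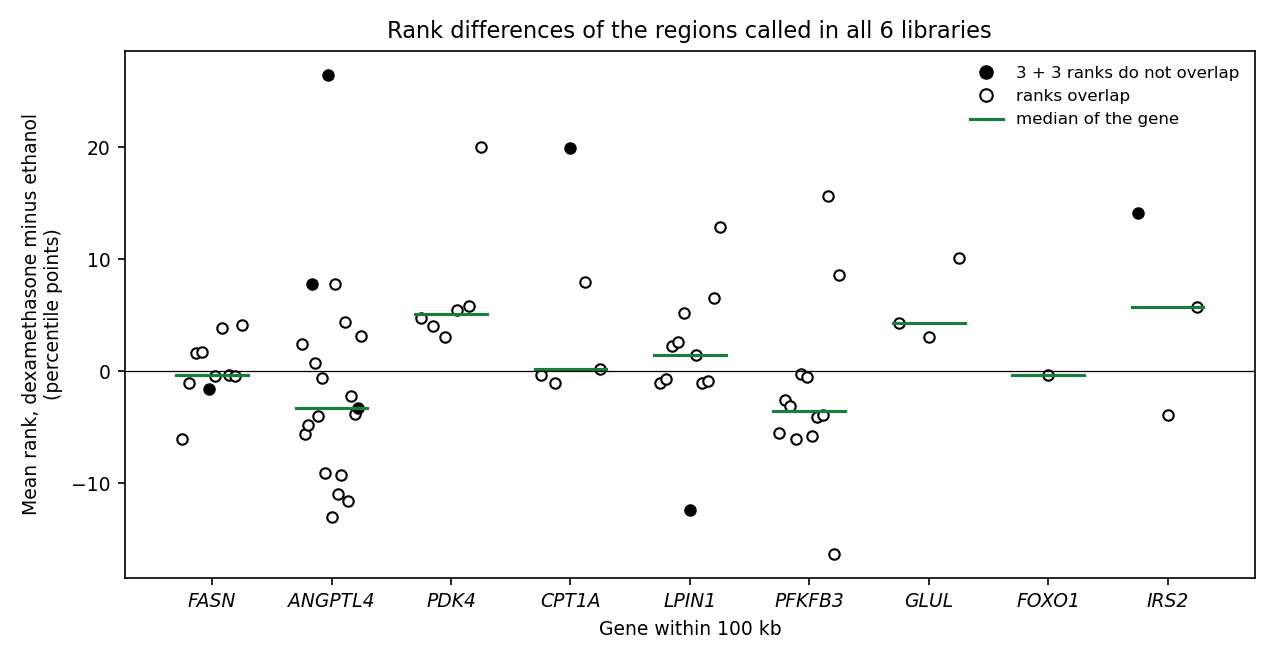
Mean rank with dexamethasone minus mean rank with ethanol (y axis, percentile points) for the 70 regions called in all libraries, by gene (x axis). Filled dots are the 7 regions whose 3 dexamethasone ranks do not overlap the 3 ethanol ranks and the lines are medians of the gene; all 6 PDK4 dots and all 3 GLUL dots lie above 0 and 10 of the 12 PFKFB3 dots below.

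Ranks that did not overlap between treatments were no more frequent than over all shared regions. The 70 regions had a median rank of 61.5, against 47.9 for all shared regions, and the shares were not matched for rank. All 3 dexamethasone ranks were above all 3 ethanol ranks in 4 of the 70 regions (5.71%), against 5.79% of all shared regions, and below them in 3 (4.29%), against 5.62%. With equally numbered libraries taken as pairs, 9 regions were higher with dexamethasone in all 3 pairs (12.9%), against 14.2% of all shared regions, and 12 were lower (17.1%), against 14.6%. With a library left out, fewer ranks have to be separated. The count with all dexamethasone ranks above was then 5 to 8 (7 without dexamethasone replicate 3 and 8 without ethanol replicate 1). The count with all below was 5 to 8 (6, 5 and 6 without dexamethasone replicates 1, 2 and 3 and 8, 7 and 7 without ethanol replicates 1, 2 and 3). The share over all shared regions under this looser rule is not given here, so these counts cannot be set against 5.79% and 5.62%.

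Of these 7 regions, the largest difference of mean ranks was at ANGPTL4. A region 8.33 kb upstream of its start (chr19:8420370-8420996) had ranks of 59.9, 54.5 and 42.2 with dexamethasone and 19.3, 23.8 and 34.0 with ethanol. Its mean rank was 52.2 ± 9.07 with dexamethasone and 25.7 ± 7.55 with ethanol (SD, n = 3 each). Of all shared regions, 0.829% had a difference of at least this 26.5 points. This was also the largest difference among the 70 shared regions near the genes, so the region was picked by its size. The share is over regions of every rank and was not limited to regions of like rank. Its peaks spanned 599, 531 and 568 bp with dexamethasone and 281, 347 and 567 bp with ethanol. The next gene upstream of ANGPTL4 in gene order is KANK3. A second ANGPTL4 region 55.7 kb upstream (chr19:8372789-8373761) had ranks of 71.8, 71.1 and 78.5 with dexamethasone and 71.0, 59.97 and 67.2 with ethanol, which are separated by a narrow margin, and its summits lay up to 331 bp apart.

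IRS2 had a weak shared region 81.4 kb downstream (chr13:110357140-110357936) with ranks of 14.3, 8.49 and 27.0 with dexamethasone and 2.53, 4.71 and 0.183 with ethanol. Its summits lay up to 493 bp apart, and when summits within 100 bp were joined it was no longer called in all libraries. LPIN1 had the largest difference of mean ranks the other way, in a region 7.93 kb upstream (chr2:11878662-11878967) with ranks of 9.41, 14.9 and 10.2 with dexamethasone and 32.3, 16.0 and 23.2 with ethanol. Its mean rank was 11.5 ± 2.96 with dexamethasone and 23.8 ± 8.19 with ethanol (SD, n = 3 each), and 6.60% of all shared regions fell at least as far. The 2 other regions with lower ranks were near the top of every list. The FASN region 60.6 kb downstream had 97.96, 94.47 and 98.26 with dexamethasone and 98.27, 98.56 and 98.50 with ethanol, so that the closest ranks of the groups nearly tie. An ANGPTL4 region 80.7 kb downstream (chr19:8509479-8509996) had 96.1, 96.4 and 91.7 with dexamethasone and 97.3, 99.1 and 97.7 with ethanol.

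**Figure D5:**
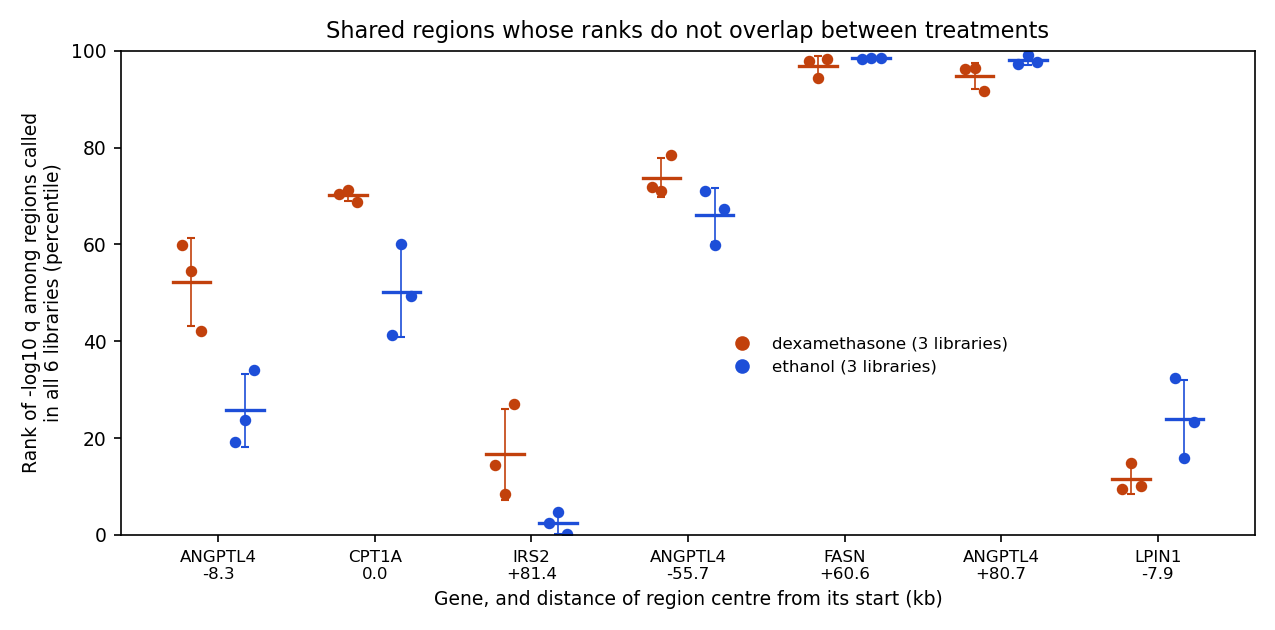
Rank of −log10 q among regions called in all libraries (y axis, percentile) for the 7 regions whose ranks do not overlap between treatments, sorted by the difference of mean ranks, with gene and distance from its start in kb on the x axis. Dots are libraries, dexamethasone left of ethanol, with mean and SD (n = 3); the difference of mean ranks is largest at ANGPTL4 8.33 kb upstream (26.5 points) and the LPIN1, FASN and ANGPTL4 regions on the right are lower with dexamethasone.

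By mean percentile of −log10 q, the strongest shared regions of CPT1A, PFKFB3 and LPIN1 had ranks that overlapped between treatments. The first lay 90.4 kb downstream of the CPT1A start (chr11:68518735-68519273), at 17.7, 17.9 and 16.7-fold with dexamethasone and 16.0, 15.9 and 18.5-fold with ethanol. At PFKFB3 the strongest region by this measure was 39.1 kb upstream (chr10:6205488-6206145), at 17.9, 18.3 and 15.3-fold with dexamethasone and 15.3, 17.9 and 15.6-fold with ethanol. At LPIN1 it was 2.38 kb upstream of the start (chr2:11884144-11884569), at 10.1, 9.63 and 12.4-fold with dexamethasone and 10.3, 10.4 and 9.23-fold with ethanol. By fold enrichment an LPIN1 region 32.7 kb downstream (chr2:11919184-11919676) was higher in every library, at 13.5, 15.3 and 13.4-fold with dexamethasone and 12.8, 14.5 and 14.2-fold with ethanol. For PFKFB3, ANGPTL4, CPT1A, LPIN1 and GLUL the nearest region called in 3 dexamethasone and 0 ethanol libraries lay 570.6 kb, 938.8 kb, 1462 kb, 1356 kb and 2230 kb from the start. For FOXO1 it lay 430.0 kb away. For PDK4 none was found in the wider window searched, which reached past every distance given here. The nearest region called in ethanol alone lay 258.2 kb from PFKFB3, 529.1 kb from PDK4, 761.7 kb from FASN, 1316 kb from GLUL and 2350 kb from CPT1A. In the same window none was found for ANGPTL4 and LPIN1. Over the genome 897 regions were called in 3 dexamethasone and 0 ethanol libraries, and 538 in 0 dexamethasone and 3 ethanol libraries. The distances were not compared with those of other genes.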

How the data were processed

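DNase-seq peaks of 6 libraries were used, grouped by the labels. Per the submitters' processing notes the authors used CASAVA 1.3, Bowtie, bedtools and MACS2 2.1.0 on hg19; settings are not given in the sources used here. The deposited columns hold the fold enrichment ratio at the summit, −log10 p and −log10 q, and a score of about −log10 q times 10 that was not used. Each library has a peak list of its own with its own numbering; whether calling used shared input is not given in the sources used here. The lists hold no read counts. No peak was identical in coordinates and −log10 q between any pair of lists.

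Peaks sharing at least 1 bp were merged over the genome, and regions with any base within 100 kb of a gene start were kept. Members, motifs and lists were chosen with earlier results of these data known. Named regions were those nearest each start, the strongest shared region of each gene, those differing by at least 2 libraries, and up to 6 per direction without rank overlap. An exact permutation test of 3 against 3 libraries cannot go below p = 0.1, and no test was made. Deviations from the treatment mean correlated at 0.207, 0.131 and 0.163 over 39934 shared regions for equally numbered libraries, so the numbers were taken as pairs in an alternative; the labels do not say what they mark. Merging and ranking were tested on simulated data. Python 3.11.15, pandas 2.3.3, numpy 2.4.6 and scipy 1.17.1 were used. Motifs in the peaks and other genes of the pathway need hg19 sequence or annotation and were not analysed here. Alternatives were stricter or equally long lists, other merging, cover, windows and ranks, joined summits, omitted libraries and the replicate block.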

Additional observations from a re-analysis of the deposited data

How the results depend on the processing

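The counts of regions near the 9 genes were 2 (dexamethasone only), 2 (ethanol only), 70 (called in all libraries), 4 (higher ranks with dexamethasone) and 3 (lower ranks). They stayed within 1.5 times of these values with a −log10 q of at least 5, lists of one length, merging across gaps of 100 bp, region centres in place of any base and ranks by fold enrichment. Within 50 kb of the starts they were 1, 2, 37, 2 and 1, and within 25 kb 0, 2, 22, 2 and 1, by construction of the smaller windows. Requiring peaks to cover at least 50% of a region left 2 regions with higher ranks. With the replicate block the counts were 6, 6, 9 and 12 (dexamethasone only, ethanol only, higher, lower), since its rules are looser; it gives no count of regions called in all libraries. Leaving out each library gave 2 to 4, 2 to 4, 71 to 72, 5 to 8 and 5 to 8, where fewer libraries have to be separated. Shares over all regions are given above for the replicate block and are not given for the other alternatives. Among the single regions, ranks by fold enrichment kept the sign of all 7 regions without rank overlap and moved the FASN start region to −1.70 and the CPT1A region 90.4 kb downstream to 0.94. The sign also turned for the small differences of the PFKFB3 (4.05) and FOXO1 (1.31) start regions and the PFKFB3 region 39.1 kb upstream (1.3). The 4 further alternatives for calls of named regions were added after seeing the data; they moved 1 to 3 of 12 values each and joined summits moved 2 of 31. Read depth is unknown, so a missing call cannot be told from a shallow library.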
